A study of Caenorhabditis elegans with 2 samples.

Results

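Nuclear hormone receptor genes were described among the genes that NHR-86::GFP was assigned to after exposure to the small molecule R24. The 7 members, nhr-86, nhr-87, nhr-21, nhr-48, nhr-107, nhr-178 and nhr-202, are all genes named nhr- plus a number among the 189 genes of the authors' deposited gene table. The listed genes were chosen by the authors on the measured contrast of R24 over DMSO, and the members were selected on that list by name. Their listing and their folds are therefore given as a description, with no test. Chromatin was immunoprecipitated with an antibody against GFP from whole C. elegans animals and sequenced. The R24 group was exposed overnight to 70 µM R24 and the DMSO group to the solvent at 1%, each with 1 library. Animals of both groups were of the strain VL648, which carries unc-119(ed3) and the integrated transgene wwIs22. In this transgene the nhr-86 promoter drives nhr-86 fused to GFP, with unc-119(+) as the rescue marker. The genotype names no mutation of the endogenous nhr-86 gene, so untagged receptor from that copy could be present. The study's methods describe synchronized hermaphrodites, placed on the compound at the L4 stage. No library without the tagged receptor and no input library was used here, and with 1 library per group no value below has a replicate check.

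Nuclear hormone receptors are transcription factors that contact DNA through a zinc finger domain. Many can be switched by small lipophilic ligands bound in a separate domain. The family is greatly expanded in nematodes, and most of the extra members descend from a receptor related to hepatocyte nuclear factor 4 (HNF4). NHR-86 itself is an HNF4 homolog. Its known site of expression is the gut epithelium. NHR-48 belongs instead to the group of DAF-12 and NHR-8, which is related to the vertebrate vitamin D and pregnane X receptors. A receptor found at the genes of other receptors is of interest because such links can join single factors into a network.

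The 7 listed genes were 2.47% of the 283 nhr genes in the RefSeq annotation, which are 269 protein-coding genes and 14 pseudogenes. Of all 46926 annotated genes, of every type, 0.388% were listed, so these shares have unlike bases. The receptor share follows from the rule by which the members were found and is read no further. Of the 7, 4 could be joined to a peak, against 77.2% of all genes of the table. These were nhr-86, nhr-87, nhr-21 and nhr-48, which lie on 4 different chromosomes. The gene table holds no positions, so the join went through its values, as given under the processing. A joined peak was therefore assigned by value, chromosome and gene order, and not by a measured distance to the gene. Gene order alone left wide stretches between the peaks of the nearest joined table genes on each side. These were 3743 kb for nhr-21, 2578 kb for nhr-87 and 296 kb for nhr-48. Each held 2 peaks, the joined peak included, so the choice between them rested on the value. For nhr-48 the full value matched, and for nhr-86, nhr-87 and nhr-21 only its decimals did. Whether a joined peak lay in a promoter, an exon or an intron was not analysed here. No annotation of ce10, the build of the peaks, was used. The 3 genes with no joined peak, nhr-107, nhr-178 and nhr-202, are all on chromosome V.

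At nhr-86, the gene of the immunoprecipitated receptor itself, the peak spanned chromosome V, 2066652 to 2067434 (783 bp), with its summit at 2067006. It held 133 tags of the R24 library over the summit (exact Poisson 95% interval 111 to 158), against 95 tags of the DMSO library (76.9 to 116). A tag is a sequenced read extended to the fragment length of 296 bp. The R24 library held 879943 tags in all and the DMSO library 2047658, or 2.33 times as many, so counts were also given as RPM, tags per 1000000 tags of the library. The nhr-86 summit held 151 RPM with R24 and 46.4 RPM with DMSO. Scaled to the depth of the R24 library, the DMSO tags amounted to a background of 40.8 tags. The deposited fold, pileup + 1 over background + 1, was 3.20. The plain ratio of the libraries was 3.26, with an exact conditional 95% interval of 2.48 to 4.28. All these intervals cover counting error alone, and they do not cover the choice of the summit as the highest point.

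The DMSO signal set nhr-86 apart from the other receptors. Its background was 7.92 times the median background of the 220 peaks, and only 2 peaks had a higher one. Its R24 pileup also ranked 3 of 220. The excess of R24 tags over background, 92.2 tags, ranked 3 of 220, whereas the fold ranked 186. Between nhr-86 and nhr-87 the R24 pileup differed 2.18-fold, the scaled background 4.52-fold and the excess 1.77-fold. Thus nhr-86 was high in tags in both libraries and low in fold. The strain holds nhr-86 both in the genome and in the transgene, and tags that come from the 2 sources cannot be told apart here. As 1 tag per position and strand was kept, a summit could hold at most 592 tags. The R24 pileup of nhr-86 reached 22.5% of this ceiling and the DMSO count 16.0%. The nearest other peak lay 66.4 kb from the nhr-86 peak, a shorter gap than at nhr-87, nhr-21 or nhr-48. Isolation from other peaks thus did not set nhr-86 apart. Between the peaks joined to the flanking table genes alh-5 and F53E10.1, which are 615 kb apart, the nhr-86 peak was the only one.

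At nhr-87 the peak spanned chromosome IV, 1624348 to 1625091 (744 bp), with its summit at 1624824. The summit held 61 tags with R24 (46.7 to 78.4) and 21 tags with DMSO (13 to 32.1). These were 69.3 RPM with R24 and 10.3 RPM with DMSO. The deposited fold of 6.18 was the highest of the receptors, and 12 of the 220 peaks had a higher one. The plain ratio was 6.76 (4.06 to 11.7). In −log10 q, the authors' measure of the significance of the pileup against the background, nhr-87 (25.4) and nhr-86 (25.3) ranked 5 and 6. This measure rises with tag count as well as with fold. A similar value was thus reached at nhr-87 with fewer tags over a lower background than at nhr-86. The interval of the ratio began at 4.06 for nhr-87 and ended at 4.28 for nhr-86, and the difference between these ratios was not tested. The background of nhr-87 was 1.75 times the median of all peaks.

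**Figure D1:**
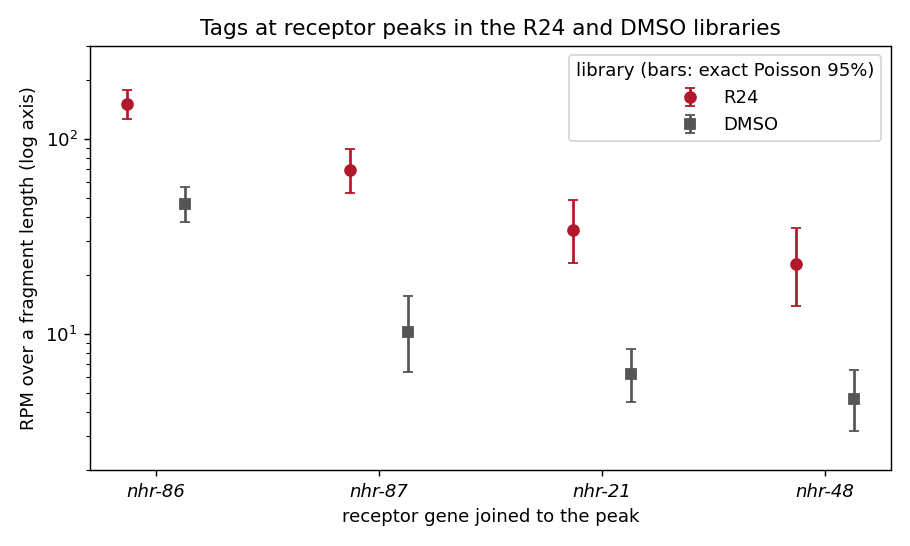
RPM over a fragment length at the 4 receptor peaks (vertical log axis), with the R24 library left of the DMSO library at each gene and exact Poisson 95% intervals as bars. R24 values, and DMSO values of nhr-86 and nhr-87, are counts at the summit, while DMSO values of nhr-21 and nhr-48 are counts within 1000 bp brought to the fragment length. Values ran from 151 with R24 against 46.4 with DMSO at nhr-86 to 22.7 against 4.63 at nhr-48. The peaks were called for R24 over DMSO, so a higher R24 value at each gene was fixed in advance.

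The nhr-21 peak was narrower and of lower count. It spanned chromosome II, 7337551 to 7337894 (344 bp), with its summit at 7337734. The R24 library held 30 tags over this summit (20.2 to 42.8), or 34.1 RPM. Its DMSO background came from a wider window, in which 43 tags lay within 1000 bp (31.1 to 57.9), or 6.22 RPM when brought to the fragment length. The deposited fold was 4.79 and the plain ratio 5.48 (3.32 to 8.95). The background is the highest of several windows around the summit, so the DMSO library held at most 12 tags over the summit itself. With those 12 tags as background the fold would be 5.04. By this rule a wider window can only lower the fold, so the higher value is no separate check. Both the pileup and the background were near those of a typical peak, at 1.30 and 1.06 times the medians. In gene order nhr-21 stands next to hsp-4, which encodes an endoplasmic reticulum chaperone of the BiP family. hsp-4 was not listed in the gene table.

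The nhr-48 peak, the lowest of these 4 in count, spanned chromosome X, 15709495 to 15709815 (321 bp), with its summit at 15709581. It held 20 tags with R24 (12.2 to 30.9), or 22.7 RPM. The DMSO library had 32 tags within 1000 bp (21.9 to 45.2), or 4.63 RPM at the fragment length, and at most 9 tags over the summit. The deposited fold was 4.14 and the plain ratio 4.91 (2.66 to 8.86). By pileup the peak ranked 146 of 220 and by −log10 q, at 5.01, it ranked 125. It was the only receptor peak with fewer tags than the median peak, which had 23. The table value of nhr-48 equalled the −log10 q of 2 peaks, this one and a peak on chromosome I with the same tag counts. The chromosome of the gene decided between them.

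Across the 4 receptor peaks the median fold was 4.47, beside 3.90 for all 220 peaks (range 2.31 to 11.1). A fold of at least 4 was reached by 3 of the 4, nhr-87, nhr-21 and nhr-48, while 45.0% of all peaks reached it. nhr-48 at 4.14 lay just inside this limit and nhr-86 at 3.20 outside it. The median pileup was 45.5 tags for the receptors and 23 for all peaks, and the median length was 544 bp and 359 bp. Both medians joined a pair of long, high peaks with a pair of short, average ones, so no receptor peak lay near the receptors' own median. The intervals of the 4 ratios overlapped one another, which does not show that the ratios were alike. In whole animals, receptor binding in more cells and more binding per cell cannot be told apart.

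**Figure D2:**
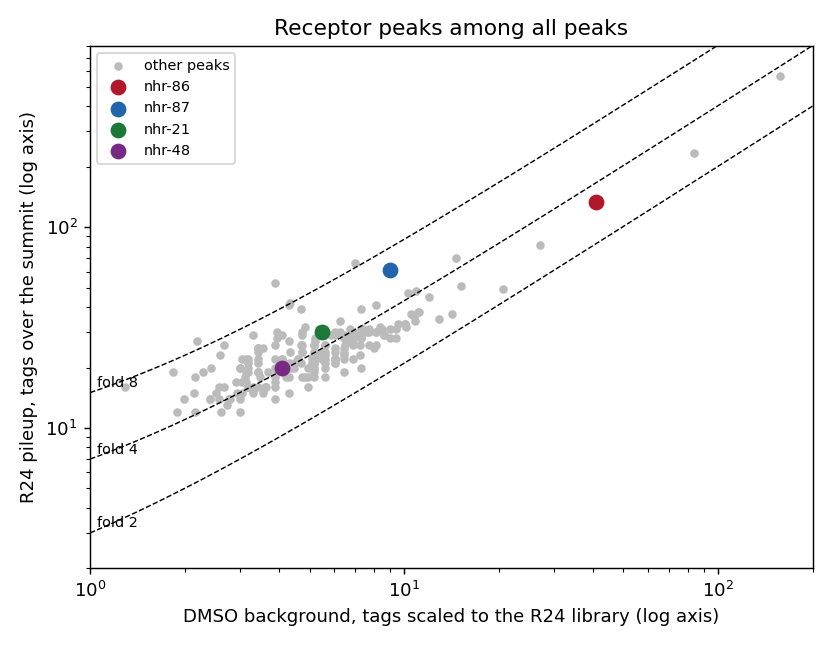
R24 pileup (vertical log axis, tags over the summit) against the DMSO background scaled to the R24 library (horizontal log axis, tags) for the 220 peaks, with the 4 receptor peaks in colour and dashed lines of equal fold. nhr-86 lies far to the upper right with 133 tags over 40.8, nhr-87 lies above the bulk with 61 over 9.02, and nhr-21 and nhr-48 lie within it.

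The shape of the peaks followed the same division. The peaks of nhr-86 and nhr-87 ranked 18 and 20 of 220 in length, and those of nhr-21 and nhr-48 ranked 128 and 160. The summit lay 355 bp into the nhr-86 peak and 477 bp into the nhr-87 peak. It lay 184 bp into the nhr-21 peak and 87 bp into the nhr-48 peak. A peak holds every position past the authors' threshold, so its length and its pileup are not independent measures.

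**Figure D3:**
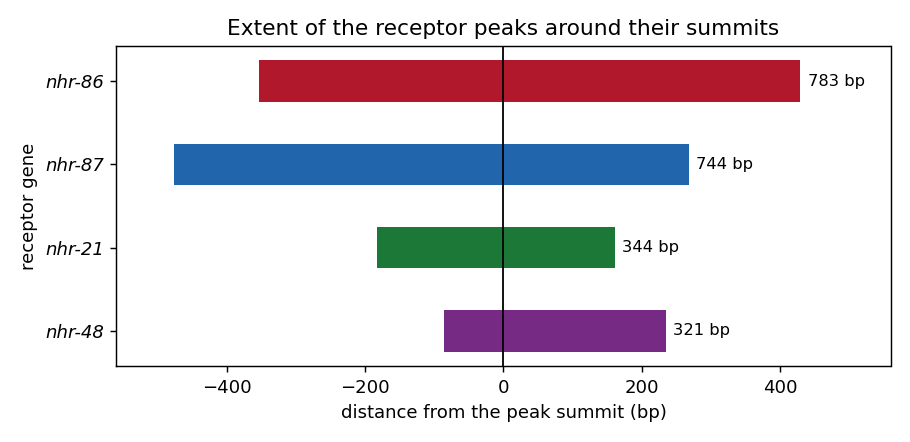
Extent of each receptor peak as deposited, in bp from its summit (vertical line), for nhr-86, nhr-87, nhr-21 and nhr-48. The upper bars span 783 and 744 bp and the lower bars 344 and 321 bp.

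How the fold was formed mattered most where counts were low. With no tag added to pileup and background the folds were 6.76 at nhr-87, 5.48 at nhr-21, 4.91 at nhr-48 and 3.26 at nhr-86. With 5 tags added they were 4.71 at nhr-87, 3.34 at nhr-21, 3.01 at nhr-86 and 2.76 at nhr-48, so nhr-48 fell below nhr-86. With 5 tags added nhr-87 alone of the receptors kept a fold of at least 4, as did 4.09% of all peaks. nhr-87 was thus the receptor whose fold depended least on the added tags among those above 4. The lowest background that the worm genome size would allow, 2.89 tags, was under the background of each receptor peak, so the human genome size of the authors' run did not bear on their folds.

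**Figure D4:**
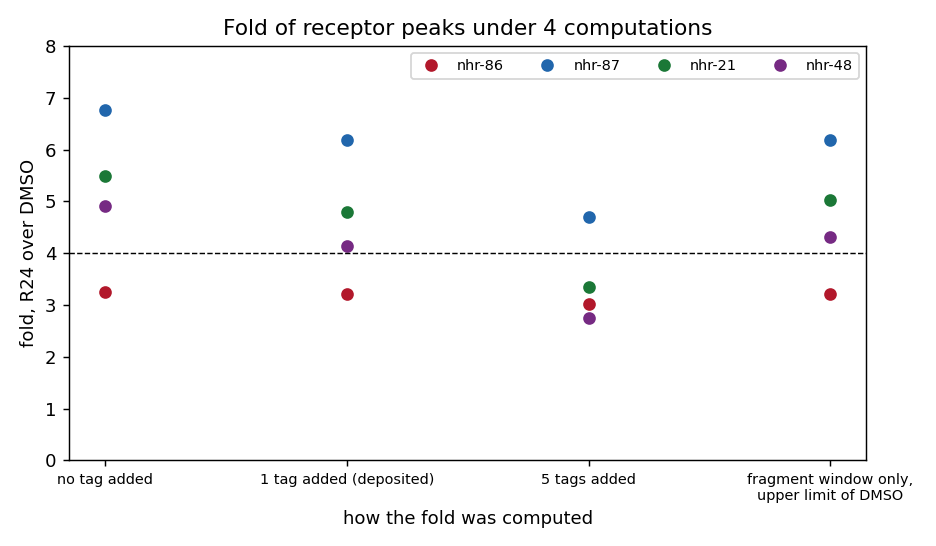
Fold of R24 over DMSO at the 4 receptor peaks (vertical axis, linear from 0) with no tag, 1 tag or 5 tags added to pileup and background, and with the DMSO count of the fragment window at its upper limit. The dashed line marks a fold of 4, above which nhr-87 stays in every column, and nhr-86 stays between 3.01 and 3.26.

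Among the peaks joined to a gene, those most like the receptor peaks were found by the distance in log2 pileup and log2 background. This distance was taken over the 1 R24 and the 1 DMSO library. For nhr-86 the nearest gene-joined peaks were those of T08A9.16 (82 tags over 27.1, fold 2.96) and aex-5, a proprotein convertase gene (234 tags over 83.8, fold 2.77), at distances of 0.92 and 1.32. Of the peaks joined to a gene, none was thus close to nhr-86 in both values. For nhr-87 they were Y18D10A.16 (47 tags over 10.3, fold 4.24) and cdk-5, a cyclin-dependent kinase gene (48 tags over 10.9, fold 4.10), both of lower fold. For nhr-21 they were K12H4.5 (31 tags, fold 5.05) and rpl-15, a ribosomal protein gene (28 tags, fold 4.67). For nhr-48 they were Y52B11A.3, with the same 20 tags and fold of 4.14, and K08E3.5 (20 tags, fold 4.28). At such counts unrelated peaks share exact values, and likeness here says nothing of shared function.

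The receptors with no joined peak were placed by gene order. For nhr-107 the nearest joined table genes on each side were moc-2 and ugt-41, a UDP-glycosyltransferase gene, and 4 peaks lay between their peaks on chromosome V. These peaks were at 6997201 to 6997547 (21 tags over 3.44, fold 4.96), 7076000 to 7076332 (fold 3.70), 7081571 to 7081908 (25 tags over 3.44, fold 5.86) and 7095350 to 7095645 (fold 4.05). Besides nhr-107, the unjoined table gene npa-1, which encodes a lipid-binding polyprotein, lies in the same stretch. Whether the authors assigned any of the 4 peaks to nhr-107, and which, could not be told from the values. The table value of nhr-107 did equal the fold of 1 peak, but that peak was on chromosome X and was joined to sams-1.

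For nhr-178 and nhr-202 the flanking joined genes were the same, ZK6.6 and alh-5, an aldehyde dehydrogenase gene, and their peaks are 1612 kb apart on chromosome V. Only 2 peaks lay between. The peak at 1607755 to 1608210 (456 bp) held 25 tags with R24 (16.2 to 36.9) over a background of 3.44, from 8 tags with DMSO, a fold of 5.86. The peak at 388737 to 389032 (296 bp) held 17 tags with R24 (9.90 to 27.2) over a background of 3.87, from 9 tags with DMSO, a fold of 3.70. Both summits thus had fewer DMSO tags than that of nhr-87. Of the 182 table genes matched in RefSeq, out of 189, nhr-178 and nhr-202 were the only ones in this stretch. The number of peaks equalled the number of these genes, but the table values of neither matched a peak. The peak joined to ZK6.6 ended at 387722, close to the peak at 388737. In gene order 24 annotated genes lie between ZK6.6 and nhr-202, and 429 between nhr-202 and alh-5. For nhr-178 these counts are 338 and 115. By gene count nhr-202 thus stands nearer to ZK6.6 and nhr-178 nearer to alh-5. Gene counts are no measured distance to a peak, and no table value matched. Neither peak was therefore assigned to a receptor.

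Receptor genes often lie side by side in the worm genome, and this bears on what a peak near one of them can be assigned to. nhr-107 stands in a run of 7 neighbouring nhr genes, nhr-202 and nhr-87 in runs of 5 each, and nhr-178 in a run of 2 with nhr-177. In each run 1 gene was listed and its neighbours were not. nhr-86, nhr-21 and nhr-48 have no nhr gene among the 3 nearest protein-coding genes or pseudogenes on either side. Over the 7 members, 14 of 42 such neighbours were nhr genes and 0 were listed in the gene table. With 0.388% of all annotated genes of every type listed, a count of 0 among 42 is no result about these neighbours. The genes next to nhr-86 are comt-3, of the catechol O-methyltransferase family, and lbp-9, of the fatty acid binding protein family.

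Other genes of receptor action were not listed. Of 11 receptors with known roles in metabolism, detoxification, molting or development, among them nhr-49, which controls fatty acid use, nhr-8 and daf-12, 0 were in the gene table. Of 25 genes of Mediator, the coactivator complex that links such factors to RNA polymerase II, 0 were listed, mdt-15 included. With 0.388% of all annotated genes of every type listed, a count of 0 in lists of this length is no result about them.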

How the data were processed

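NHR-86::GFP chromatin immunoprecipitation was compared between 1 R24 and 1 DMSO library. According to the labels and the published methods, the authors mapped reads to ce10 (BWA MEM 0.7.15), sorted the alignments with Picard and kept those of mapping quality 10 or more with SAMtools. Peaks were called with MACS2. Per the file headers this was version 2.1.1.20160309, with R24 as treatment, DMSO scaled down by 0.430, 1 tag kept per position, a fragment length of 296 bp, a human genome size of 2.7 Gb and a q cutoff of 0.05. The deposited list of 220 peaks gives the pileup (signal, whole R24 tags), the fold enrichment (a ratio), and −log10 p and −log10 q, all by the authors. Positions are in ce10.

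The DMSO background was recovered from pileup and fold. Recomputing −log10 p from both gave the deposited values to within 0.000322. All 220 backgrounds were whole DMSO tags in a window of 296 bp (108 peaks), 1000 bp (90) or 10000 bp (22), the smallest matching window being taken. A count was taken as whole where it lay within what rounding of the deposited fold to 5 decimals allows, at most 0.00101 of 1 tag. A multiple of 10 tags in the widest window could pass for the 1000 bp window. Intervals are exact Poisson or exact conditional (Clopper-Pearson) intervals at 95%.

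The authors' deposited gene table holds a score headed fold enrichment, and −log10 p and q columns that were not used. All 189 scores were 5-decimal numbers multiplied by 1.325 (the next best of 1000 factors fitted 42). After division a gene was joined to the 1 peak on its chromosome with that −log10 q, that fold, or the same decimals of −log10 q (tolerance 6e-06), if joined genes stayed in gene order. This joined 146 genes, 22 by decimals alone, and left out 3 out of order. nhr-48 was joined in full. nhr-86 and nhr-87 were joined by decimals, their table values lying exactly 20 under the −log10 q of the peak, and nhr-21 likewise with a difference of 5. RefSeq (WBcel235) gave names, chromosomes and gene order for 182 genes. The join and background recovery were tested on simulated data. Every simulated gene took its value from a peak, so this could not show how often a gene with no peak is joined by decimals.

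No test was made, since each group held 1 library. Where peaks were counted by fold, the limit was a fold of at least 4, apart from the q cutoff that gave the authors' 220 peaks. Members, gene lists and methods were chosen with earlier results of these data known. Named genes were the members, the 2 joined peaks nearest to each joined member, flanking joined genes and adjacent genes. Alternatives changed the tags added, the lowest background, the fold limit, the genes kept and the background window. Promoter motifs and protein sequences, planned at first, were not analysed here. Python 3.11.15, numpy 2.4.6, pandas 2.3.3, scipy 1.17.1 and matplotlib 3.10.9 were used.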

Additional observations from a re-analysis of the deposited data

How the results depend on the processing

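Of 34 alternatives 31 left the value within its counting interval or within 1.5 times the count, and 3 did not. Several of the 31 could not have moved, so this tally does not measure robustness. The folds with no tag added are the plain ratios on which the intervals were built. The worm genome size could not change any receptor fold, nor could the fragment window at nhr-86 and nhr-87, where it was already used. Leaving out nhr-86, whose fold was under 4, could not change the count of peaks. With only genes joined in full, 1 receptor (nhr-48) had a joined peak in place of 4, so the values of nhr-86, nhr-87 and nhr-21 rest on matches by decimals alone. With 5 tags added, or with a fold limit of 5, 1 receptor peak (nhr-87) was counted in place of 3. Over all 220 peaks the same settings left 9 and 38 peaks in place of 99. The median fold of the receptor peaks ran from 3.18 with 5 tags added to 5.20 with none, and without nhr-86 it was 4.79. The background of the fragment window at its upper limit, and the count without nhr-86, were chosen after seeing the data. No paired analysis was possible because each group held 1 library. Low tag counts limited the ratios, whose interval ran from 2.66 to 8.86 at nhr-48 and from 4.06 to 11.7 at nhr-87.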

Other observations

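By chromosome, the 283 annotated nhr genes numbered 176 on V (62.2%), 34 on IV, 25 on I, 24 on X, 16 on II and 8 on III. The listed receptors numbered 4 on V and 1 each on IV, X and II. The peaks numbered 55 on V, 37 on IV, 35 on I, 40 on X, 30 on II and 23 on III. The peaks at 1607755 to 1608210 and at 7081571 to 7081908 on chromosome V, in the stretches of nhr-178 and nhr-107, had the same pileup of 25 R24 tags over the same 8 DMSO tags.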
